A study of Mus musculus with 31 samples.

Results

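The genes described here encode subunits of ATP-dependent chromatin remodeler complexes, measured as RNA in mouse fibroblasts with and without Xist. The 50 genes were chosen by symbol from the SWI/SNF, ISWI, CHD and NuRD, and INO80 and SRCAP groups, with Hells and Atrx added as further remodeling ATPases. They were found among the 24470 gene symbols of the exon table, with 1 transcript row used per symbol, the one with the highest total. Among them are Smarca4, Smarca5 and Chd4, which encode BRG1, SNF2H and CHD4, the proteins that the study targeted with siRNA in its accessibility assays. The series as a whole combined accessibility profiling, BRG1 chromatin immunoprecipitation and RNA sequencing, and asked how Xist RNA affects BRG1 on the inactive X chromosome. RNA was sequenced in 3 groups of 2 libraries each, all from female dermal fibroblasts of a CAST/Ei x 129/Sv/Jae hybrid. WT cells carried intact Xist, and Xist-deleted line 1 and Xist-deleted line 2 lacked it on the inactive X with a wild-type active X. Each Xist-deleted group is a single cell line, so the deletion cannot be told apart from other differences between that line and the WT line. The protocol calls the 2 libraries of a group biological replicates without naming separate cultures, and p-values measure only the spread between these libraries.

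Remodelers use ATP hydrolysis to slide, eject or restructure nucleosomes. SWI/SNF complexes are built around 1 of the paralogous ATPases BRG1 (Smarca4) and BRM (Smarca2) and open chromatin at enhancers and promoters, whereas ISWI complexes space nucleosomes and NuRD joins a CHD ATPase to histone deacetylases. INO80 and SRCAP exchange histone variants. Many subunits exist as paralogs that occupy the same position in a complex, so cell types differ in which paralog they express.

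Total reads in the exon table's header ranged from 10.5 to 20.1 M per library (M, 1000000), and the counts used here from 3.81 to 7.07 M. The 50 genes together held 35559 to 61908 counts per library. Levels are given as counts per 1000000 (CPM) of the scaled library size. Xist stood at 633 and 429 CPM in the WT libraries and at 0.273 to 1.08 CPM in the 4 libraries of the Xist-deleted lines. The 10 dermal fibroblast markers summed to 4406 to 7029 CPM per library, but not all of them were high or even between groups. Lum stayed between 0.141 and 5.14 CPM. Dcn was at 61.9 and 26.9 CPM in WT, 243 and 156 CPM in line 1 and 28.6 and 19.7 CPM in line 2. Keratinocyte, leukocyte and adipocyte lists each stayed under 1 CPM in sum. The endothelial list summed to 0.270 to 7.36 CPM, mostly Kdr in WT and line 2. Kdr was at 0 in both line 1 libraries, while Cdh5 was at 2.05 CPM in line 1 replicate 2. The melanocyte list summed to 5.46 to 10.1 CPM, nearly all of it Pmel, and the skeletal muscle list to 0.273 to 8.00 CPM, nearly all of it Des. The neuron list (Rbfox3, Snap25, Tubb3, Map2) summed to 59.9 to 238 CPM, lowest in line 1 (114 and 59.9 CPM), and nearly all of it was Tubb3 and Map2. Replicate 1 was the shallower library in every group, so replicate number and depth cannot be told apart.

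RefSeq promoters of build GRCm38.p6 were found by symbol for 40 of the 50 genes, and for 37 of them the nearest listed start lay within 500 bases of the start of the counted transcript, a limit chosen after the distances were seen. Of these, 5 are printed because the results below turn on them: 4 genes whose RNA changed in line 1, and X-linked Atrx, which has a BRG1 site near its start. Each sequence is the 250 bases upstream of the start, written 5′ to 3′ on the gene's strand. Smarcd3 lies at chr5:24602003-24602252 (minus strand), Dpf1 at chr7:29303755-29304004 (plus), Chd9 at chr8:90828585-90828834 (plus), Ino80 at chr2:119477688-119477937 (minus) and Atrx at chrX:105929373-105929622 (minus). Capitals mark the GC box GGGCGG and the CCAAT box CCAAT, searched on both strands, so that CCGCCC and ATTGG are marked as well.
Smarcd3: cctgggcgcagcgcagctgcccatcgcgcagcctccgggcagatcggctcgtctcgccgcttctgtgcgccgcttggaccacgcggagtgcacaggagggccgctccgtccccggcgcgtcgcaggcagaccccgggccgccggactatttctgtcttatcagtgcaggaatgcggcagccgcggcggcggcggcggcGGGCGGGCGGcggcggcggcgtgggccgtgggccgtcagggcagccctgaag
Dpf1: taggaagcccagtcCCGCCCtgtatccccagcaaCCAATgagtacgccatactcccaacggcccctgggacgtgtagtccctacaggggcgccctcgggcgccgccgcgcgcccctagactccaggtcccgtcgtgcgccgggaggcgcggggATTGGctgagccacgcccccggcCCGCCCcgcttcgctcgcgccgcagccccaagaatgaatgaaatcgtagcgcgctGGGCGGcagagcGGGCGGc
Chd9: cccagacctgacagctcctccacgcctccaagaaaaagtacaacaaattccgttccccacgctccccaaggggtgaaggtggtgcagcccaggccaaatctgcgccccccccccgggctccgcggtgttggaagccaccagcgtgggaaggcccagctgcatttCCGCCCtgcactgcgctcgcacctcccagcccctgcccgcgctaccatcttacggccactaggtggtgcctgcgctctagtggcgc
Ino80: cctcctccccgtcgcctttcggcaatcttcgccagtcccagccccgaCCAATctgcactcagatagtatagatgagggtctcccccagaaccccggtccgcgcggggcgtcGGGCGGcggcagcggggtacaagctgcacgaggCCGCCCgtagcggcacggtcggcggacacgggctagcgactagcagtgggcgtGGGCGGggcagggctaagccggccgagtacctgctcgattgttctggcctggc
Atrx: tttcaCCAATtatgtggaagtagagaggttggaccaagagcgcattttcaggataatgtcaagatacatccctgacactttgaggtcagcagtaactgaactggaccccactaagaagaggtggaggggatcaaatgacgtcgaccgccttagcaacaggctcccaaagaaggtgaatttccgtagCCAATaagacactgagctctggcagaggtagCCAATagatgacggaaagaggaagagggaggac
Dpf1 held 4 GC boxes and 2 CCAAT boxes, Ino80 held 3 and 1, and Smarcd3 held 2 overlapping GC boxes and no CCAAT box. Atrx differed from these in holding 3 CCAAT boxes and no GC box, with 6 CpG dinucleotides against 31 in Dpf1 and 38 in Smarcd3. With 1 promoter for each of the 37 genes, the nearest to the counted start, 32 held a GC box. Among the 32851 RefSeq promoters of the same length the share was 32.7%, and the median CpG count was 24 against 6. This background was limited neither to 1 promoter per gene nor to genes expressed in these cells, so it is not matched to the members. CCAAT was found in 10 of 37 (33.9% of all promoters), TATAAA in 2 (12.4%), the E box CACGTG in 4 (6.02%) and the ETS core CCGGAAG in 5 (6.91%). The start used for Ino80 lies 58 bases upstream of the counted transcript's start, and those of the other 4 coincide with it. Letters that match a motif describe the sequence and say nothing of binding.

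Of the 50 genes, 49 had enough counts to be tested and 5 changed in line 1 against WT. Chd7 and Ino80 rose, and Smarcd3, Dpf1 and Chd9 fell (edgeR quasi-likelihood test, Benjamini-Hochberg adjusted p under 0.05 over 12910 genes). The share of all genes called in this comparison was 14.3%, with 6.75% higher and 7.55% lower, so 5 of 49 is not a larger share than that of genes in general. With the replicate number as a block, 16 of the 49 were called, 5 higher and 11 lower, where 32.4% of all genes were called, 16.3% higher and 16.1% lower. DESeq2 called 6, the same 5 and Chd3, at a background of 14.4%. Without adjustment 9 had a p under 0.05, beside 28.0% of all genes. In line 2 against WT edgeR called 0 of the 49 (background 3.58%, of which 1.73% higher and 1.85% lower). At an unadjusted p under 0.05 there were 4 (background 14.5%), DESeq2 called 0 (background 4.5%), and the block called 4 (background 12.1%). These were Baz2a, higher (background 5.87%), and Dpf1, Chd2 and Srcap, lower (background 6.27%).

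Differences across the list were small. The median log2 fold change of the 49 genes was -0.11 in line 1 and -0.06 in line 2, beside 0.01 over all genes tested in both comparisons. Single libraries turned the sign of these medians, which were 0.02 in line 1 without line 1 replicate 2 and 0.01 in line 2 without WT replicate 1. In line 1, 43 of 49 genes (87.8%) lay within 0.5 log2 units of WT, against 70.1% of all genes. In line 2 it was 47 of 49 (95.9%) against 81.3%. This background is not matched to the members, of which 39 stood above the median level per kilobase of all genes tested. Their median transcript length was 5672 bases against 2871. The part of level and length in these shares was not tested. Both libraries of line 1 lay above both WT libraries for 5 genes (background 25.4%) and below both for 15 (background 25.6%). In line 2 the counts were 2 above (background 24.9%) and 11 below (background 23.9%). Both lines were compared with the same 2 WT libraries, so their differences share that source.

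**Figure D1:**
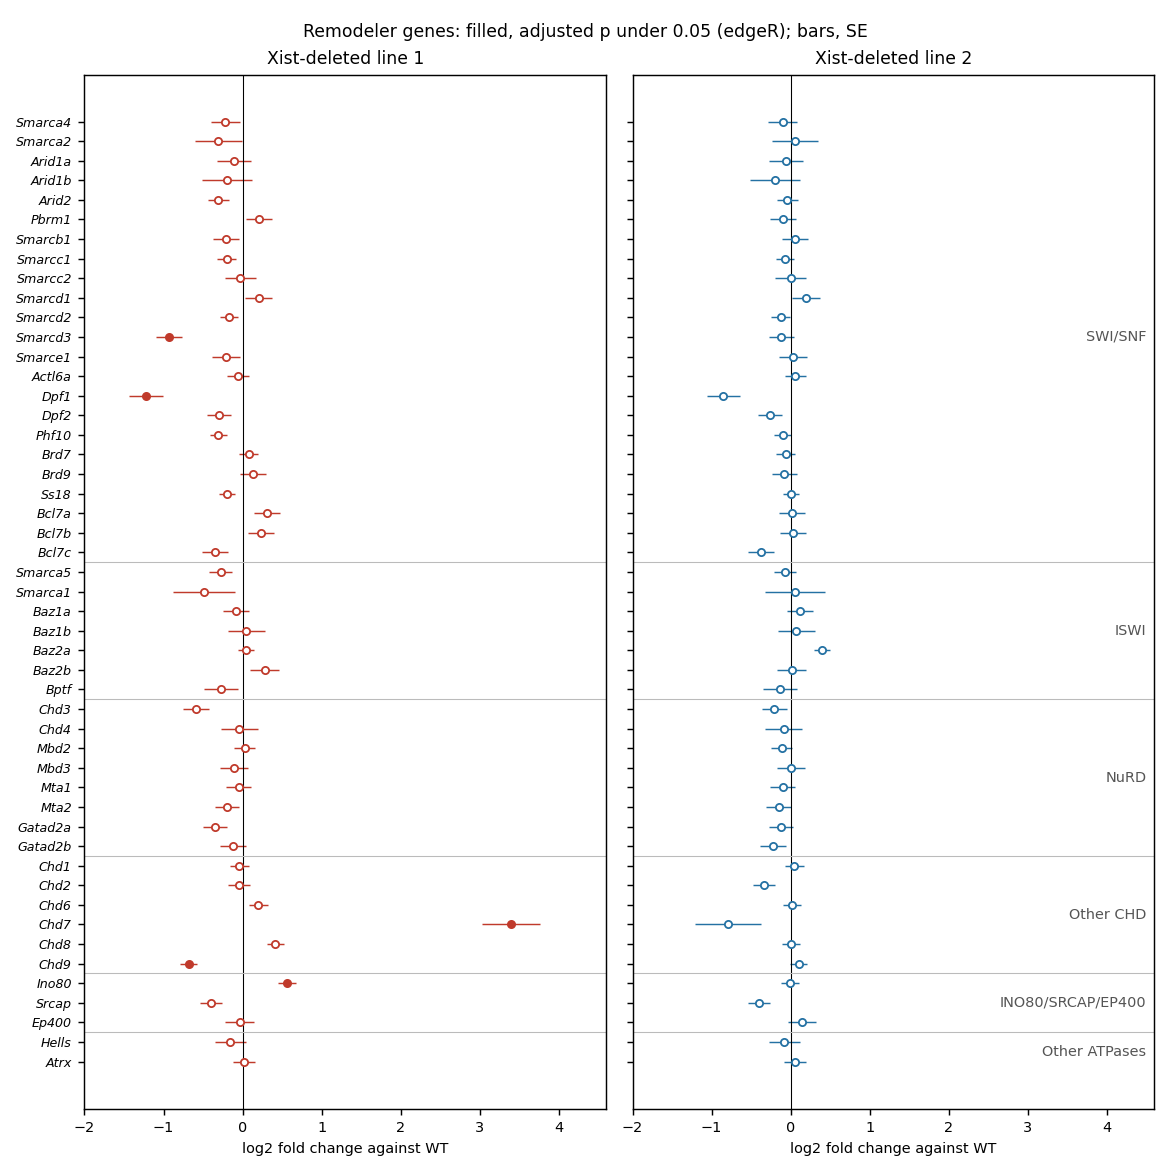
Log2 fold change against WT of the 49 genes tested, by complex, in Xist-deleted line 1 (left) and line 2 (right), with bars for the standard error from the edgeR fit and filled points for adjusted p under 0.05. Filled points are Smarcd3, Dpf1, Chd7, Chd9 and Ino80 in line 1, with Chd7 farthest out at 3.39, and there is none in line 2.

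Among the SWI/SNF genes the ATPase Smarca4 was at 600 and 498 CPM in WT, 526 and 418 CPM in line 1 and 559 and 465 CPM in line 2. The groups overlapped, and in each of them replicate 1 was the higher library. Against WT the log2 difference of line 1 was -0.22 (SE 0.18, adjusted p = 0.526), and that of line 2 was -0.10 (SE 0.18, adjusted p = 0.914). Within each replicate number line 1 was below WT. With the replicate block the adjusted p was 0.0541 in line 1 (SE 0.07) and 0.426 in line 2 (SE 0.07). RNA for the protein whose location the study followed was therefore not called in either line, with or without the block, and narrowly so in line 1 with it. Its paralog Smarca2, which encodes BRM, was at 86.9 and 71.2 CPM in WT, 79.7 and 49.0 CPM in line 1 and 98.6 and 65.7 CPM in line 2, with overlapping groups and log2 fold changes of -0.31 and 0.05.

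Smarcd3 fell in line 1. This gene encodes BAF60C, 1 of 3 alternative BAF60 subunits that link SWI/SNF to transcription factors, known from heart and muscle development. Smarcd3 stood at 74.3 and 78.4 CPM in WT, 45.4 and 35.1 CPM in line 1, and 68.8 and 72.1 CPM in line 2. Both line 1 libraries were below all others. Line 1 differed from WT by a log2 fold change of -0.93 (SE 0.16, adjusted p = 0.0144), and line 2 by -0.12 (adjusted p = 0.873). Without WT replicate 1 or WT replicate 2 the adjusted p in line 1 was 0.0735 and 0.0989. The annotated gene Chpf2 overlaps the Smarcd3 locus on the opposite strand, but the counted spans do not overlap, and Chpf2 had a log2 fold change of 0.08 in line 1. The muscle marker list summed to 4.04 and 1.44 CPM in WT, 1.62 and 0.273 CPM in line 1 and 8.00 and 5.78 CPM in line 2, with Myod1 and Myog at 0 in both lines, and its part in the Smarcd3 result was not tested. The paralogs Smarcd1 and Smarcd2 had log2 fold changes of 0.20 and -0.17 in line 1, neither called.

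Dpf1 fell in line 1 and was also lower in both line 2 libraries. DPF1 (BAF45B) is a PHD-finger subunit associated with neuronal SWI/SNF complexes. Dpf1 stood at 21.2 and 24.5 CPM in WT, 8.65 and 10.8 CPM in line 1 and 12.8 and 12.5 CPM in line 2. No library of either Xist-deleted line reached the WT range. Against WT the log2 fold change of line 1 was -1.22 (SE 0.22, adjusted p = 0.0153). That of line 2 was -0.85 (SE 0.21, adjusted p = 0.106), which the replicate block called (adjusted p = 0.0181). The line 1 call was lost without WT replicate 1, WT replicate 2 or line 2 replicate 2, with adjusted p of 0.0673, 0.132 and 0.0508. The neuronal tubulin gene Tubb3 was lower in the same libraries, at 37.9 and 32.2 CPM in WT, 7.84 and 5.87 CPM in line 1 and 14.5 and 15.5 CPM in line 2. Map2, a neuronal microtubule gene, was at 133 and 167 CPM in WT, 105 and 53.8 CPM in line 1 and 223 and 195 CPM in line 2, while Rbfox3 and Snap25 stayed under 1 CPM throughout. The part of these genes in the Dpf1 result was not tested.

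The ubiquitous relative Dpf2 was at 171 and 155 CPM in WT, 149 and 117 CPM in line 1 and 143 and 129 CPM in line 2. Both lines lay below WT, but the log2 fold change in line 1 of -0.30 was called only with the block (adjusted p = 0.276 without it and 0.0392 with it). Phf10, a subunit of the PBAF form, was at 154 and 151 CPM in WT, 131 and 117 CPM in line 1 and 145 and 140 CPM in line 2. Its log2 fold change of -0.31 in line 1 had an adjusted p of 0.132 without the block and 0.0279 with it. Dpf3, a muscle-associated member of the same subunit family, had 0 to 2 counts per library and was the only gene too low to test.

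Smarcc2, a core scaffold subunit, had the highest level per kilobase of the SWI/SNF genes. It was at 454 and 392 CPM in WT, 479 and 351 CPM in line 1 and 462 and 385 CPM in line 2, and the groups overlapped. Its log2 fold change was -0.03 in line 1 and 0.00 in line 2. Besides Smarca4, Smarcc2, Smarcd3, Dpf1, Dpf2, Dpf3 and Phf10 there were 17 SWI/SNF genes, Smarca2 among them. In line 1 these ranged from -0.35 (Bcl7c) to 0.31 (Bcl7a), with a smallest adjusted p of 0.206 without the block. With it, Bcl7c, Bcl7a and Arid2 were called in line 1 (adjusted p = 0.0456, 0.0416 and 0.0470). In line 2 the 17 genes ranged from -0.37 (Bcl7c) to 0.19 (Smarcd1). Of the 23 SWI/SNF genes tested 2 fell (background 7.55%) and 0 rose (6.75%) in line 1, with a median of -0.20, and with the block 6 fell (16.1%) and 1 rose (16.3%). The line 2 median was -0.06, and edgeR called 0 (3.58%), against 1 before adjustment of p (14.5%), 0 from DESeq2 (4.5%) and 1 from the block (12.1%).

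**Figure D2:**
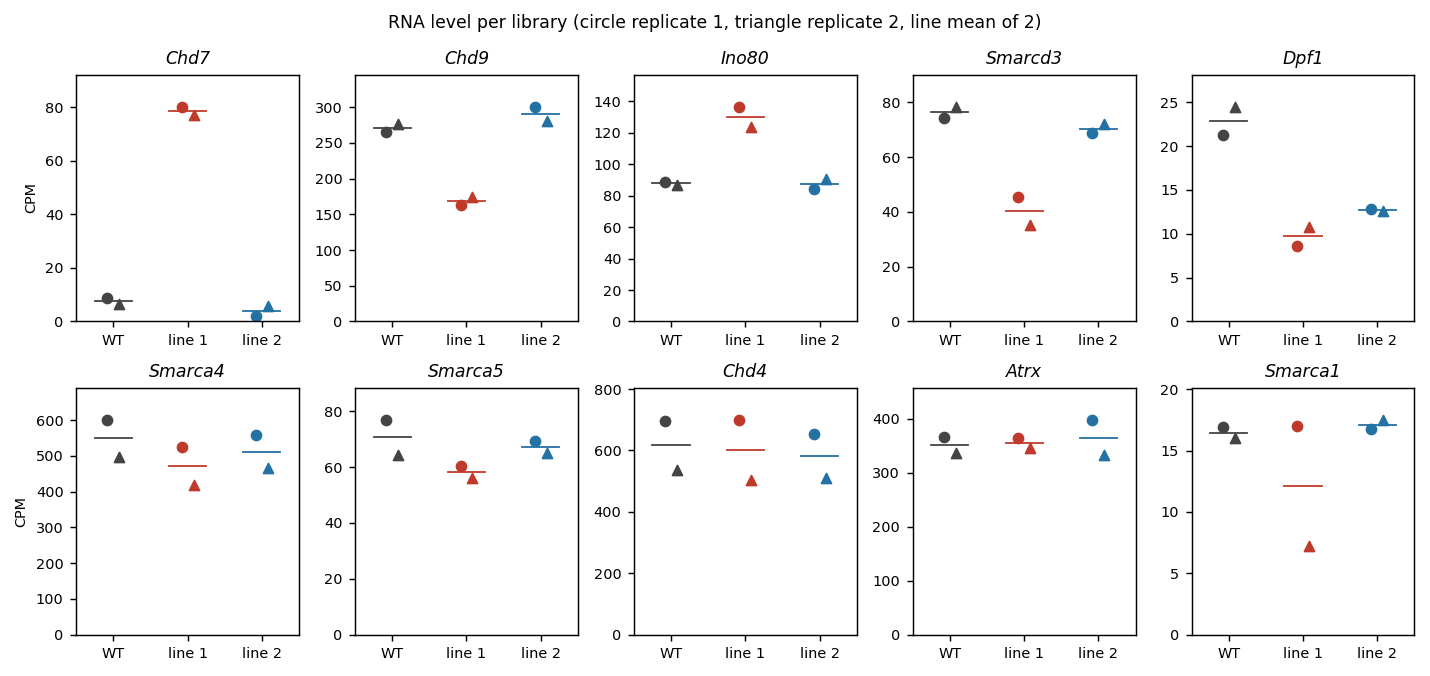
Level in CPM of 10 genes in each of the 6 libraries, with circles for replicate 1, triangles for replicate 2 and a line for the mean of each group. The upper row holds the 5 genes called in line 1, where the line 1 points stand apart from WT, and the lower row the siRNA targets Smarca4, Smarca5 and Chd4 and the X-linked Atrx and Smarca1.

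Among the 7 ISWI genes edgeR called 0 in both lines (background 14.3% in line 1 and 3.58% in line 2). Smarca5 encodes SNF2H, the main ISWI ATPase and an siRNA target of the study. It was at 76.8 and 64.3 CPM in WT, 60.3 and 56.2 CPM in line 1 and 69.3 and 65.0 CPM in line 2. Line 1 lay below WT and line 2 overlapped it, and the log2 fold changes were -0.28 (SE 0.14, adjusted p = 0.285) and -0.07 (SE 0.14, adjusted p = 0.926). Of the 7 ISWI genes, 0 in line 1 (background 28.0%) and 1 in line 2 (14.5%) had an unadjusted p under 0.05, and DESeq2 called 0 in both (14.4% and 4.5%). The block called 2 in line 1 and 1 in line 2, where it called 32.4% and 12.1% of all genes. Family medians were -0.08 and 0.06.

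Its X-linked paralog Smarca1, which encodes SNF2L, was at 16.9 and 16.0 CPM in WT, 17.0 and 7.23 CPM in line 1 and 16.7 and 17.5 CPM in line 2. The 2 line 1 libraries disagreed, with replicate 2 below all others and replicate 1 level with WT. Its line 1 log2 fold change of -0.49 (SE 0.39) had an adjusted p of 0.504, and without line 1 replicate 1 it was -1.19 with an adjusted p of 0.0227. Baz2a encodes TIP5, which joins SNF2H in the nucleolar remodeling complex that silences ribosomal genes. Baz2a was at 181 and 172 CPM in WT, 183 and 181 CPM in line 1 and 237 and 227 CPM in line 2. Line 2 lay above all other libraries. Its log2 fold change in line 2 was 0.40 (SE 0.10, adjusted p = 0.121), called with the block (adjusted p = 0.0172).

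Bptf, the large subunit of the NURF complex, which reads methylated histone H3, was at 258 and 193 CPM in WT, 211 and 162 CPM in line 1 and 230 and 180 CPM in line 2. The groups overlapped, and the line 1 log2 fold change of -0.28 was called only with the block (adjusted p = 0.488 without it and 0.0307 with it). Baz1b, the Williams syndrome transcription factor, was at 431 and 317 CPM in WT, 440 and 333 CPM in line 1 and 448 and 339 CPM in line 2. Replicate 1 exceeded replicate 2 in each group and the groups overlapped, with log2 fold changes of 0.05 and 0.07. Baz1a and Baz2b ranged from -0.08 to 0.28 in line 1 and from 0.01 to 0.12 in line 2. The Baz2b value in line 1 was called only with the block (adjusted p = 0.401 without it and 0.0452 with it).

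Of the 8 NuRD genes edgeR called 0 in both lines (background 14.3% and 3.58%). At an unadjusted p under 0.05 there were 1 in line 1 and 0 in line 2 (28.0% and 14.5%). DESeq2 called 1 and 0 (14.4% and 4.5%), and the block called 2 and 0 (32.4% and 12.1%), so no count stood above that of genes in general. Chd4 encodes the main NuRD ATPase, the third siRNA target. It was at 697 and 538 CPM in WT, 699 and 503 CPM in line 1 and 652 and 510 CPM in line 2. The groups overlapped, and the log2 fold changes were -0.04 (SE 0.23, adjusted p = 0.947) and -0.09 (SE 0.23, adjusted p = 0.949). The paralog Chd3, an alternative NuRD ATPase, was at 472 and 370 CPM in WT, 292 and 266 CPM in line 1 and 389 and 341 CPM in line 2. Both line 1 libraries lay below all others. Line 1 had a log2 fold change of -0.59 (SE 0.16) and an adjusted p of 0.0620, while the block gave 0.00278 and DESeq2 0.0198.

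Gatad2a, a NuRD linker subunit, was at 334 and 285 CPM in WT, 263 and 223 CPM in line 1 and 305 and 265 CPM in line 2. Line 1 lay below WT and line 2 overlapped it. The line 1 log2 fold change of -0.35 had an adjusted p of 0.196 and, with the block, 0.0107. The other 5 NuRD genes ranged from -0.20 (Mta2) to 0.03 (Mbd2) in line 1 and from -0.23 (Gatad2b) to 0.00 (Mbd3) in line 2. Family medians were -0.11 and -0.12.

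The other CHD genes held both the largest rise and 1 of the falls. Chd7 encodes the remodeler mutated in CHARGE syndrome, with known roles in neural crest and stem cells. It was at 8.59 and 6.56 CPM in WT, 80.3 and 77.2 CPM in line 1 and 2.18 and 5.92 CPM in line 2. Both line 1 libraries were far above every other library, and both line 2 libraries were below WT. The fold change in line 1 was 10.5 (log2 3.39, SE 0.37, adjusted p = 0.00280), from 34 and 41 counts in WT to 297 and 566 in line 1. Line 2, with 9 and 42 counts, gave -0.79 on the log2 scale (SE 0.42, adjusted p = 0.493). The line 1 call held in each of the 12 alternatives tried, with log2 fold changes from 3.21 to 3.57 and adjusted p up to 0.0264. Of the 30 genes tested within 5 Mb of Chd7, 2 were called higher and 0 lower in line 1 (background 6.75% and 7.55%), with a median of 0.21.

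Chd9, a relative of Chd7 and Chd8, fell in line 1. It was at 265 and 276 CPM in WT, 163 and 174 CPM in line 1 and 301 and 280 CPM in line 2. Line 1 lay below and line 2 above both WT libraries. Its line 1 log2 fold change was -0.68 (SE 0.11, adjusted p = 0.0116), while line 2 gave 0.10 (SE 0.11, adjusted p = 0.819). Without WT replicate 1 or WT replicate 2 the line 1 adjusted p was 0.0765 and 0.112.

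Chd8, a negative regulator of Wnt target genes linked to autism, was at 248 and 246 CPM in WT, 335 and 322 CPM in line 1 and 238 and 257 CPM in line 2. Both line 1 libraries lay above all others. The log2 fold change of 0.41 (SE 0.11) in line 1 had an adjusted p of 0.0570, and 0.00848 with the block. Chd1, Chd2 and Chd6 ranged from -0.04 (Chd2) to 0.20 (Chd6) in line 1 and from -0.34 (Chd2) to 0.04 (Chd1) in line 2. The Chd2 value in line 2 was called only with the block (adjusted p = 0.339 without it and 0.0466 with it).

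Ino80, the ATPase of the INO80 complex, rose in line 1. It was at 88.9 and 87.1 CPM in WT, 137 and 123 CPM in line 1 and 84.3 and 90.4 CPM in line 2. Line 1 lay above all other libraries and line 2 overlapped WT. Line 1 gave a log2 fold change of 0.56 (SE 0.12, adjusted p = 0.0256) and line 2 one of -0.01 (SE 0.12, adjusted p = 0.993). This call was lost with the compared groups fitted alone (adjusted p = 0.0699) and without WT replicate 1, WT replicate 2, line 2 replicate 1 or line 2 replicate 2 (adjusted p from 0.0651 to 0.176).

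Srcap, the ATPase that deposits the histone variant H2A.Z, was lower by about the same amount in both lines. It was at 458 and 384 CPM in WT, 337 and 301.5 CPM in line 1 and 329 and 308 CPM in line 2, and no library of either line reached WT. Each line gave a log2 fold change of -0.40 (SE 0.14), with adjusted p of 0.122 and 0.251, and with the block 0.00915 and 0.0204. Ep400, the ATPase of the TIP60 acetyltransferase complex, had log2 fold changes of -0.04 and 0.14. Of these 3 genes 1 rose (background 6.75%) and 0 fell (7.55%) in line 1. In line 2, 0 were called (3.58%), with 1 under 0.05 before adjustment (14.5%), 0 from DESeq2 (4.5%) and 1 from the block (12.1%).

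Hells, a helicase needed for DNA methylation of repeats, was at 141 and 156 CPM in WT, 108 and 158 CPM in line 1 and 130 and 151 CPM in line 2. The groups overlapped, and the log2 fold changes were -0.15 and -0.08. Atrx, which deposits histone H3.3 at repeats with DAXX, was at 366 and 337 CPM in WT, 364 and 346 CPM in line 1 and 398 and 332 CPM in line 2. Its groups overlapped as well, with log2 fold changes of 0.02 (SE 0.14, adjusted p = 0.967) and 0.05 (SE 0.14, adjusted p = 0.946).

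Atrx lies on the X (mm10, chrX:105797615-105929372, minus strand) and is the only one of the 2 X-linked members in the table of allele reads. The mus share, from the 129/Sv/Jae X, was 0.911% and 1.40% in the WT libraries, 0.739% and 1.64% in those of line 1 and 1.32% and 1.07% in those of line 2. These shares overlapped between groups and rested on 202 to 335 allele reads per library. Pooled per group they were 1.19% of 505 reads in WT (95% Wilson interval 0.546 to 2.57%), 1.30% of 538 in line 1 (0.632 to 2.66%) and 1.18% of 552 in line 2 (0.499 to 2.35%), where intervals cover counting error only. Allele reads were rounded down to whole reads for the intervals. The median share over 205 X-linked genes was 1.73 to 2.27% per library, and 16 to 101 of the 205 genes lay below Atrx.

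Of the deposited X-linked sites, 5 BRG1 sites of the Monoallelic class lie within Atrx, out of 887 in that class. The nearest, chrX:105927070-105927535, is 1.84 kb from its transcription start, inside the gene. No BRG1 site of the XiRestored class (189 sites) and no accessible site of the XiRestored class (37 sites) lies within Atrx, and the nearest are 89.0 kb and 97.7 kb from its start. Smarca1 (chrX:47809370-47892552, minus strand) holds no site of any class. The site nearest to its transcription start is an accessible Monoallelic site 37.9 kb away. The rule behind these classes is not stated in the labels or files.

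The 2 Xist-deleted lines were also compared directly, a test that uses no WT mean. Smarcd3 and Chd9 were higher in line 2 than in line 1 and Chd7 and Ino80 lower, 4 of 49 genes, where 12.6% of all genes were called, 6.87% higher and 5.76% lower in line 2. DESeq2 called 4 (background 13.0%), and 6 had an unadjusted p under 0.05 (background 24.6%). The log2 differences of line 2 from line 1 were 0.82 for Smarcd3 (SE 0.16, adjusted p = 0.0243), 0.78 for Chd9 (SE 0.11, adjusted p = 0.00761), -4.18 for Chd7 (SE 0.39, adjusted p = 0.00187) and -0.57 for Ino80 (SE 0.12, adjusted p = 0.0260). Dpf1 differed from the other called genes in that its difference between the lines, 0.37, was not called (adjusted p = 0.393). With the block Baz2a, Chd3, Chd2 and Chd8 were called as well, 8 in all with 4 higher and 4 lower in line 2, at a background of 27.2%, of which 13.4% higher and 13.8% lower. Fitted without the WT libraries, or without either one of them, Chd7 and Chd9 were called and Smarcd3 and Ino80 were not (adjusted p from 0.0594 to 0.0809). Without either library of line 2, Chd7 alone was called, and the adjusted p of Smarcd3, Chd9 and Ino80 lay between 0.0599 and 0.221.

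Levels were compared between genes per kilobase of the counted transcript, as the mean of the 6 libraries. Chd4 was highest at 89.6 CPM per kilobase, followed by Smarcc2 (85.2), Phf10 (84.0), Smarca4 (80.3) and Mta2 (76.9). The median over all genes tested was 17.6 CPM per kilobase, and 39 of the members stood above it. NuRD genes had a family median of 60.6, SWI/SNF 37.1, INO80, SRCAP and EP400 27.8, the other CHD genes 21.1 and ISWI 14.1. The ranges of the neighbours Chd4 and Smarcc2 overlapped, at 75.0 to 104 and 71.1 to 97.1 over the 6 libraries. Within each library Chd4 was the higher, except in line 2 replicate 2 (76.1 against 78.0). At the lower end Smarca1 (3.79), Chd7 (2.67) and Dpf3 (0.0774) stood below the remaining members. Chd7 reached this mean through line 1, at 6.97 CPM per kilobase against 0.670 in WT and 0.358 in line 2.

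**Figure D3:**
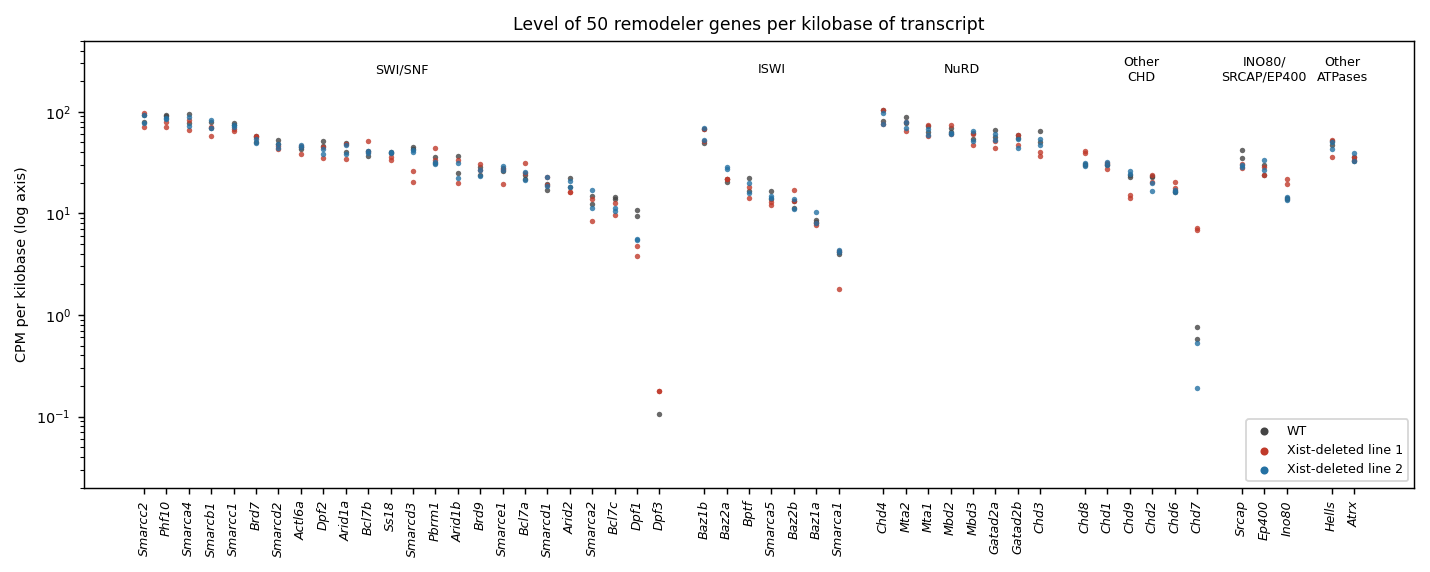
Level per kilobase of transcript (log axis) of the 50 genes, by complex and in falling order, with 1 point per library coloured by group. The 8 NuRD genes lie close together near the top, and Dpf1, Chd7 and Dpf3 fall at the bottom of their families, with the 2 line 1 points of Chd7 apart from its other points (Dpf3 is drawn only where its count is above 0).

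The table lists several transcripts for 8 of the genes, and overlapping transcripts share reads. For Smarca2 the full transcript of 5812 bases had 12.9 CPM per kilobase, while 2 short transcripts at its 3′ end, of 1961 and 1960 bases, had 27.0 and 26.2. The reads of the short forms were 57.1 to 91.5% of those of the long form, with 33.7% of its length. Bcl7c gave a like picture, with 48.4 CPM per kilobase for a transcript of 964 bases against 12.1 for the one of 6359 bases. The levels of both genes therefore depend on the transcript chosen.

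Paralogs that fill the same position were set against each other within each library, which removes library scaling. Smarca4 exceeded Smarca2 6.31-fold per kilobase in the mean of the log2 ratios, and the log2 ratio of Smarca2 to Smarca4 lay between -2.96 and -2.37 in all 6 libraries, with overlapping groups. With the short transcripts of Smarca2 in place of the full one the excess was 2.97-fold and 3.05-fold. The log2 ratio of Smarcd3 to Smarcd1 was 1.34 and 1.23 in the WT libraries, 0.47 and -0.18 in those of line 1 and 1.10 and 0.86 in those of line 2. Both lines lay below WT, and line 1 lowest. As a share of the 3 Smarcd genes per kilobase, Smarcd3 took 39.3% of WT levels, 26.2% of those of line 1 and 37.9% of those of line 2, while Smarcd1 took 16.2%, 23.7% and 19.3%.

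The log2 ratio of Dpf1 to Dpf2 was -2.45 and -2.11 for WT, -3.55 and -2.88 for line 1 and -2.92 and -2.80 for line 2. The ratio of Chd3 to Chd4 was -0.68 and -0.66 for WT, -1.38 and -1.04 for line 1 and -0.87 and -0.70 for line 2. In both pairs each library of each line lay below WT. Bcl7c to Bcl7b showed the same order, at -1.45 in the mean of WT, -2.04 in line 1 and -1.86 in line 2. The short transcript of Bcl7c turned the sign of that ratio, to 0.47, 0.04 and 0.10. Smarca1 to Smarca5 ranged from -2.75 to -1.62, both ends in line 1, and Smarcd2 to Smarcd3 rose above WT (0.29 and 0.07) in line 1 (0.81 and 1.08) and overlapped it in line 2. Of the other 7 pairs Smarcd2 to Smarcd1 had the widest range, from 0.90 to 1.62, and Mta1 to Mta2 the narrowest, from -0.31 to -0.11. Among those 7, line 1 lay below WT for Smarcd2 to Smarcd1 and Gatad2a to Gatad2b. Line 1 lay above WT for Mbd2 to Mbd3 and Mta1 to Mta2. With 2 libraries in a group these ratios were not tested.

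**Figure D4:**
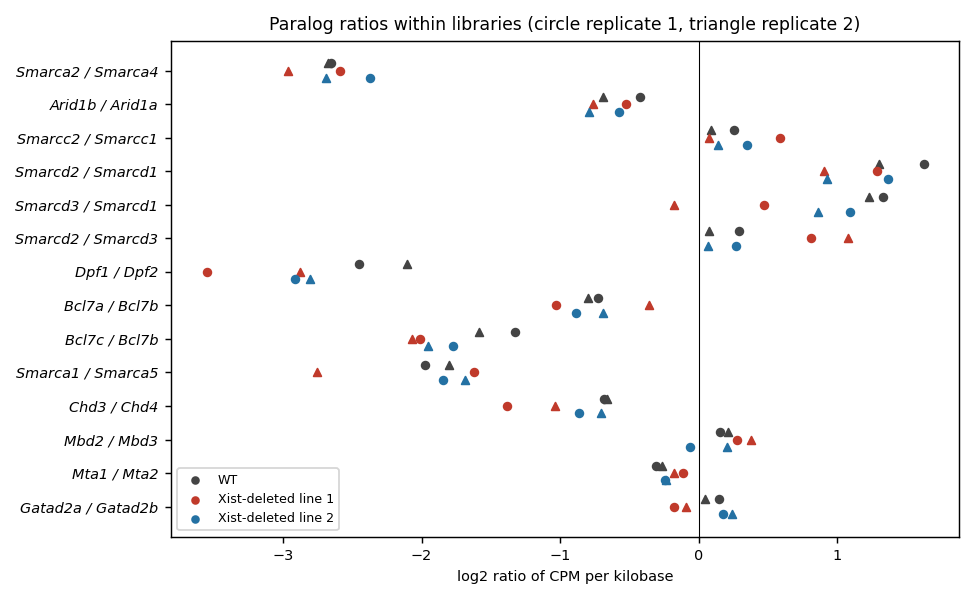
Log2 ratio of the level per kilobase of 14 paralog pairs within each library, with circles for replicate 1 and triangles for replicate 2, coloured by group. Line 1 points lie left of WT for Smarcd3 to Smarcd1, Dpf1 to Dpf2, Bcl7c to Bcl7b and Chd3 to Chd4. They also lie left of WT for Smarcd2 to Smarcd1 and Gatad2a to Gatad2b. For Smarcd2 to Smarcd3, Mbd2 to Mbd3 and Mta1 to Mta2 they lie right of WT. Both lines overlap WT for the remaining pairs, among them Smarca2 to Smarca4.

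Several chromosomes had medians away from 0, and some of these values stand beside those of the members on them. Genes of chromosome 7 had a median log2 fold change of -0.27 in line 1 and -0.30 in line 2. Those of chromosome 14 had 0.49 and -0.04, and those of chromosome 2 had 0.16 and 0.01. Chromosome 8 had -0.17 and -0.14, chromosome 9 -0.13 and -0.10 and chromosome 19 -0.13 and -0.12. On chromosome 9 Smarca4, Smarcc1 and 3 other subunits were all below 0 in both lines, beside 67.1% and 71.1% of all genes there. On chromosome 8, 3 of 4 members were below 0 in each line, beside 74.0% and 70.8%. On chromosome 19, 4 of 5 remodeler genes were below 0 in each line, beside 68.4% and 74.7%. On chromosome 7 the members Dpf1, Srcap, Bcl7c and Chd2 and 5 other remodeler subunits were all below 0 in both lines, 9 of 9, beside 81.0% and 87.8% of all genes there. On chromosome 14 Chd8, Pbrm1 and 2 other subunits were all above 0 in line 1, where 13.3% of all genes were below 0. On chromosome 2 Ino80, Baz2b, Chd6 and 4 other subunits were all above 0 in line 1, where 32.7% of all genes were below 0. The members on chromosome 11 went the other way, with Smarcd2, Smarce1, Bptf and Chd3 all below 0 in line 1 (median -0.24). The chromosome median was 0.05 there, and 43.3% of all genes were below 0. The 1 other subunit on chromosome 11, Mbtd1, was above 0 at 0.23.

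Less the chromosome median, the line 1 value of Chd8 was -0.07, that of Srcap -0.13 and that of Bcl7c -0.08. For the called genes these values were -1.01 for Smarcd3, -0.95 for Dpf1, 3.31 for Chd7, -0.52 for Chd9 and 0.40 for Ino80. Among members that edgeR did not call, the values farthest from 0 were -0.64 for Chd3, -0.51 for Smarca1, -0.32 for Bptf, -0.28 for Pbrm1 and -0.27 for Arid2. In line 2 the value of Srcap less its chromosome's median was -0.10 and that of Dpf1 -0.55. For the siRNA targets such values in lines 1 and 2 were -0.08 and 0 for Smarca4 and -0.11 and 0.07 for Smarca5. Those of Chd4 were 0.01 and -0.07. Within 5 Mb of Ino80, 10 of 87 genes were called higher and 0 lower in line 1, with a median of 0.31, and within 5 Mb of Chd8 26 of 99 were called higher and 1 lower with a median of 0.49, beside 6.75% higher and 7.55% lower over all genes. Within 5 Mb of Dpf1 16 of 147 were called lower and 4 higher, with a median of -0.26. Within 5 Mb of Chd9 10 of 59 were called higher and 4 lower, with a median of -0.08, and within 5 Mb of Smarcd3 2 of 55 were called higher and 1 lower, with a median of 0.19. The part of these chromosome shifts in the results of single genes was not tested.

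**Figure D5:**
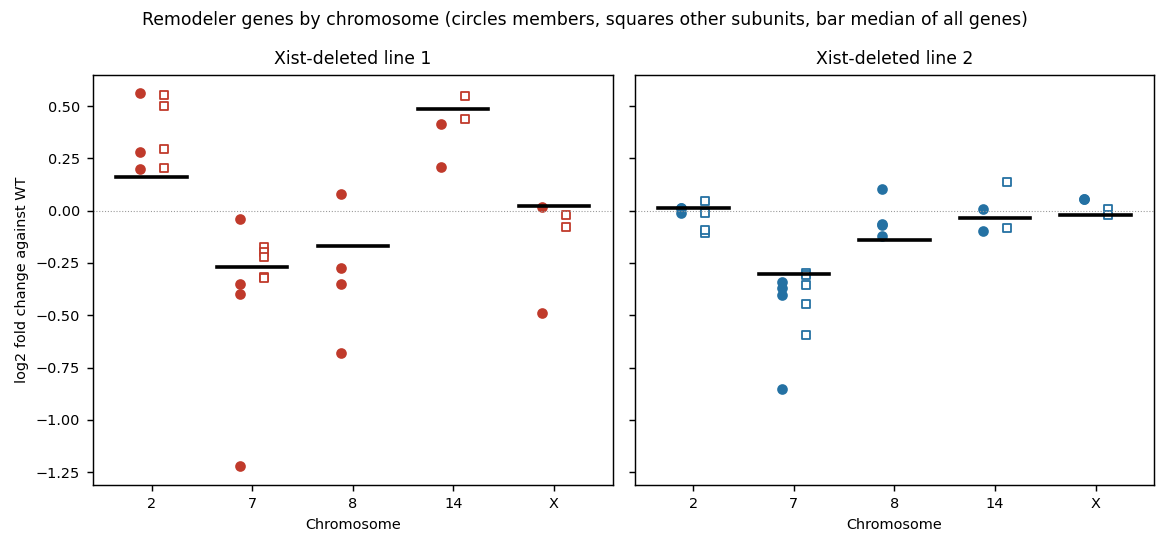
Log2 fold change against WT of remodeler genes on chromosomes 2, 7, 8, 14 and X, in line 1 (left) and line 2 (right), with circles for the members, squares for other remodeler subunits and bars for the median of all genes tested on that chromosome. Points on chromosome 7 lie below 0 in both lines, and those on chromosomes 2 and 14 above 0 in line 1.

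Replicates differed in a way that the members shared. In all 3 groups replicate 1 was the higher library for 29 of the 49 genes (59.2%), against 31.7% of all genes tested, and replicate 2 was higher in all 3 for 8 (16.3%) against 31.0%. The median difference of replicate 1 from replicate 2 was 0.12 log2 units for WT, 0.17 for line 1 and 0.10 for line 2. The members' transcripts had a median length of 5672 bases against 2871 for all genes, but the mean replicate difference had a Pearson correlation with log2 length of only -0.05 across all 12910 genes and 0.23 across the 49, which are not independent replicates. Arid1b, the DNA-binding subunit paralogous to Arid1a, was at 414 and 282 CPM in WT, 383 and 227 CPM in line 1 and 354 and 253 CPM in line 2, an example chosen after its values were seen. The part of depth in this pattern was not tested.

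Other subunits of these complexes, from a separate list of 55 symbols, were measured for 53 and tested for 50. In line 1 edgeR called 1 of the 50 (background 14.3%), Bcl11b, a transcription factor found in SWI/SNF complexes of T cells and neurons. Bcl11b had 2 and 4 counts in WT (0.505 and 0.640 CPM), 140 and 135 in line 1 (37.8 and 18.4 CPM) and 4 and 24 in line 2 (0.969 and 3.38 CPM). Line 1 lay above all other libraries, with a log2 fold change of 5.51 (SE 0.71, adjusted p = 0.00498), which on so few WT counts is loosely determined. Line 2 had 0 called by edgeR (background 3.58%), 2 with p under 0.05 before adjustment (14.5%), 0 called by DESeq2 (4.5%) and 2 called by the block at 12.1% (Rsf1 and Ruvbl2, both lower and both on chromosome 7). With the block 7 were called in line 1, under the 32.4% of all genes, of which Actr8, Bcl11b, Ercc6, Ino80d, Mrgbp and Smarcal1 were higher and Rsf1 lower. The medians over the 50 were 0.00 and -0.02.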

How the data were processed

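RNA was sequenced from 6 libraries, WT and 2 Xist-deleted lines with 2 replicates each. Per the file headers, the authors used HOMER on mm10 to give each RefSeq transcript an expected count over its exons, in steps of 0.5 and without normalization. The transcript length in bases, an annotation value of another kind, and the coordinates of site classes are used as deposited. Allele reads are deposited expected counts per parental allele. For the RNA, TopHat2, HOMER, SAMtools, bedtools 2.25.0 and Trim Galore 0.4.1 are named, per the submitters' processing notes. The libraries were directional, but no label or header says whether counting used the strand. Predicted or unnamed genes overlap several members, and named ones overlap Pbrm1 (Smim4), Chd2 (Chaserr) and Smarcd3 (Chpf2).

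The design assumed counts, so the expected counts were rounded to whole numbers. Of 28972 transcripts, the one with the highest total was kept for each of 24470 symbols. All 6 libraries entered 1 edgeR 4.0.16 quasi-likelihood fit (R 4.3.3) with TMM scaling, 1 mean for each group, filterByExpr (12910 genes tested), 3 residual degrees of freedom and Benjamini-Hochberg adjusted p under 0.05. The common biological coefficient of variation was 0.170. The fit was tested on simulated data. Standard errors are the size of the log2 fold change over the square root of F. CPM use TMM-scaled library sizes.

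Differences between replicates 1 and 2 correlated between groups. The Pearson values were 0.54 for WT with line 1, 0.59 for WT with line 2 and 0.53 between the lines. They were taken across 12910 genes, which are not independent replicates. The main fit did not use the replicate number. An alternative fit took it as a block, as a pairing of libraries, and blocked values stand beside member results that they change. DESeq2 1.42.0, RLE scaling, no filter, compared groups alone, summed transcripts, longest-transcript lengths, single-library allele shares and each library left out were the alternatives.

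Values in every library are given for the siRNA targets, called genes, X-linked genes, the highest and lowest gene per kilobase of each family, and up to 8 genes called only with the block. The members and lists were chosen with earlier results of these data known. Accessibility and BRG1 libraries were not used here beyond the deposited site lists.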

Additional observations from a re-analysis of the deposited data

Results flagged for a closer look

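The 2 Xist-deleted lines differed from each other at 4 members and 1 other subunit in the direct edgeR test of line 2 against line 1. The log2 difference of line 2 from line 1 was 0.82 for Smarcd3, 0.78 for Chd9, -4.18 for Chd7 and -0.57 for Ino80. For Bcl11b it was -3.54, on 140 and 135 counts in line 1 and 4 and 24 in line 2. In each case line 1 lay apart from WT and line 2 was not called against WT. The calls of Smarcd3, Chd9 and Ino80 were lost without either line 2 library (adjusted p from 0.0599 to 0.221), and those of Smarcd3 and Ino80 also without either WT library, while that of Chd7 held.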

How the results depend on the processing

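The replicate block, which pairs libraries by number, moved the most counts: it called 16 members in line 1, 4 in line 2 and 8 between the lines, where the fit without it called 5, 0 and 4, and 7 and 2 other subunits in lines 1 and 2, where the fit without it called 1 and 0. Why the block moved them was not tested. Fitted alone, lines 1 and 2 gave 2 called members in place of 4. Leaving out 1 library at a time changed which members were called in line 1 and between the lines, and the other subunits called in line 1. The share of all genes called in those fits is not given here, so such counts are not read as a trait of the members. Chd7 alone was called in line 1 without WT replicate 1 or WT replicate 2, and an arm left with 1 library is assumed to vary like the others. Among the log2 fold changes of the named members under all alternatives, 10 gained a call and 12 lost one in line 1 against WT, 3 gained one in line 2 against WT, and 4 gained and 12 lost one between the lines. None reversed a called direction. With 2 libraries a group and 3 residual degrees of freedom, and 3.81 M counts in the shallowest library, small differences and genes at the level of Dpf3 were not detectable. The longest transcript's length in place of the counted one changed the level of Gatad2a to 53.6 and that of Dpf3 to 0.0372 CPM per kilobase.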
